A study of Mus musculus with 8 samples.

Results

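The SPARC family of matricellular genes was followed in 2 kinds of mouse mesenchymal stromal cells (MSCs), those of the pancreas (pMSCs) and those of inguinal white adipose tissue (iwatMSCs), a fat depot under the skin of the groin. Its 8 members, Sparc, Sparcl1, Smoc1, Smoc2, Spock1, Spock2, Spock3 and Fstl1, were taken by symbol from 54116 genes. All 8 were in the table, and 5 of them reached a mean of 1 FPKM over the libraries and were among the 13345 genes tested. FPKM relate the fragments of a transcript to its length and to the size of the library, so levels of different genes are compared here per length. Spock2 reached that mean only through its pMSC libraries, and Smoc1, Spock1 and Spock3 lay below it and were not tested.

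Both groups came from untreated male C57BL/6J mice aged 8 weeks on a standard diet, and each had 4 libraries of enriched mRNA. Pancreas and inguinal fat of the same mice were digested, and flow cytometry kept cells without CD31 (endothelium) and CD45 (leukocytes) that carried SCA1, a surface protein of stromal progenitors. The sorted cells of several mice were pooled and grown for 4 days before RNA was taken, so all libraries are of cultured cells. Whether the libraries of 1 organ came from separate pools is not given in the sources used here, nor is it given which pancreas and inguinal libraries share mice. Replicate numbers only follow the order of the libraries. All p-values reflect no more than the spread between libraries, which may be technical.

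Matricellular proteins are secreted into the extracellular matrix, where they adjust how cells meet collagens, growth factors and proteases rather than building the scaffold themselves. Members of the SPARC family share a follistatin-like module and an extracellular calcium-binding domain. SPARC itself binds fibrillar collagens and platelet-derived growth factor, and mice without it are known for weak collagen fibrils and enlarged fat pads. SMOC proteins and FSTL1 are known to restrain bone morphogenetic protein (BMP) signalling, and the SPOCK proteins, or testicans, are proteoglycans that act on matrix-degrading proteases.

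Total FPKM per library ranged from 437894 to 458616, and 13092 to 13313 genes reached 1 FPKM, but the depth in reads is unknown. By limma, 2589 of 13345 genes (19.4%) differed between the organs at an adjusted p under 0.05, with 1204 (9.02%) higher and 1385 (10.4%) lower in pMSCs. The summed level of 9 stromal markers overlapped between groups, at 1364 to 1576 FPKM in pMSCs and 1388 to 2037 FPKM in iwatMSCs. Ptprc, which encodes CD45, and Pecam1, which encodes CD31, had group means of at most 0.0109 and 0.246 FPKM, while Ly6a, which encodes SCA1, was at 73.0 to 114 FPKM in pMSCs and 79.4 to 202 FPKM in iwatMSCs. Sums of acinar (62.4 to 337 against 1.81 to 3.71 FPKM), mesothelial (23.1 to 42.4 against 5.97 to 14.8) and epithelial markers (28.9 to 48.5 against 16.0 to 20.4) were higher in every pMSC library than in any iwatMSC library. Those of leukocyte (6.33 to 8.31 in pMSCs against 16.2 to 19.5), adipocyte (15.7 to 23.8 against 28.8 to 48.8) and glial markers (0.707 to 0.883 against 1.65 to 2.58) lay the other way, with 5 of 10 leukocyte and 2 of 8 glial markers listed at 0 in every library. Among 5 tested mesothelial markers, limma called 4 higher in pMSCs and Krt19 lower (2.41 to 3.80 against 5.69 to 14.5 FPKM). Krt19 made up most of the iwatMSC mesothelial sum. Wt1 was the largest mesothelial marker in pMSCs, at 12.2 to 16.0 FPKM, and was at 0 in iwatMSCs. Among 4 tested epithelial markers, 3 were called higher in pMSCs. Sox9, most of the iwatMSC epithelial sum, overlapped with a lower pMSC mean (13.1 against 17.9 FPKM). The part of the cell types of these lists in the results was not tested. In such bulk RNA, fewer cells of a type and less RNA per cell cannot be told apart.

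The family as a whole was a larger fraction of the RNA of pMSCs. Its summed level was 2375 ± 145 FPKM in pMSCs against 1719 ± 117 FPKM in iwatMSCs (mean ± SD, n = 4, as for all means here), which was 0.495 to 0.558% of all FPKM of a pMSC library and 0.340 to 0.398% of an iwatMSC library. Sparc held 83.2% of that sum in pMSCs and 84.7% in iwatMSCs, and Fstl1 held 10.95% and 14.0%. Smoc2 made up 4.48% of the family sum in pMSCs but 0.916% in iwatMSCs, and Sparcl1 1.31% and 0.302%. Without Sparc and Fstl1, the remaining 6 genes summed to 139 ± 16.6 FPKM in pMSCs against 22.2 ± 2.02 FPKM in iwatMSCs.

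Within each group the order of levels was Sparc, Fstl1, Smoc2, Sparcl1 and Spock2, and the ranges of neighbours in that order did not overlap. In pMSCs Smoc1 came next, followed by Spock1 and Spock3, whose ranges overlapped. In iwatMSCs Spock1 and Smoc1 overlapped, and Spock3 was lowest. The plot of values by library shows that the low and high members span from 0 to 2087 FPKM.

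**Figure D1:**
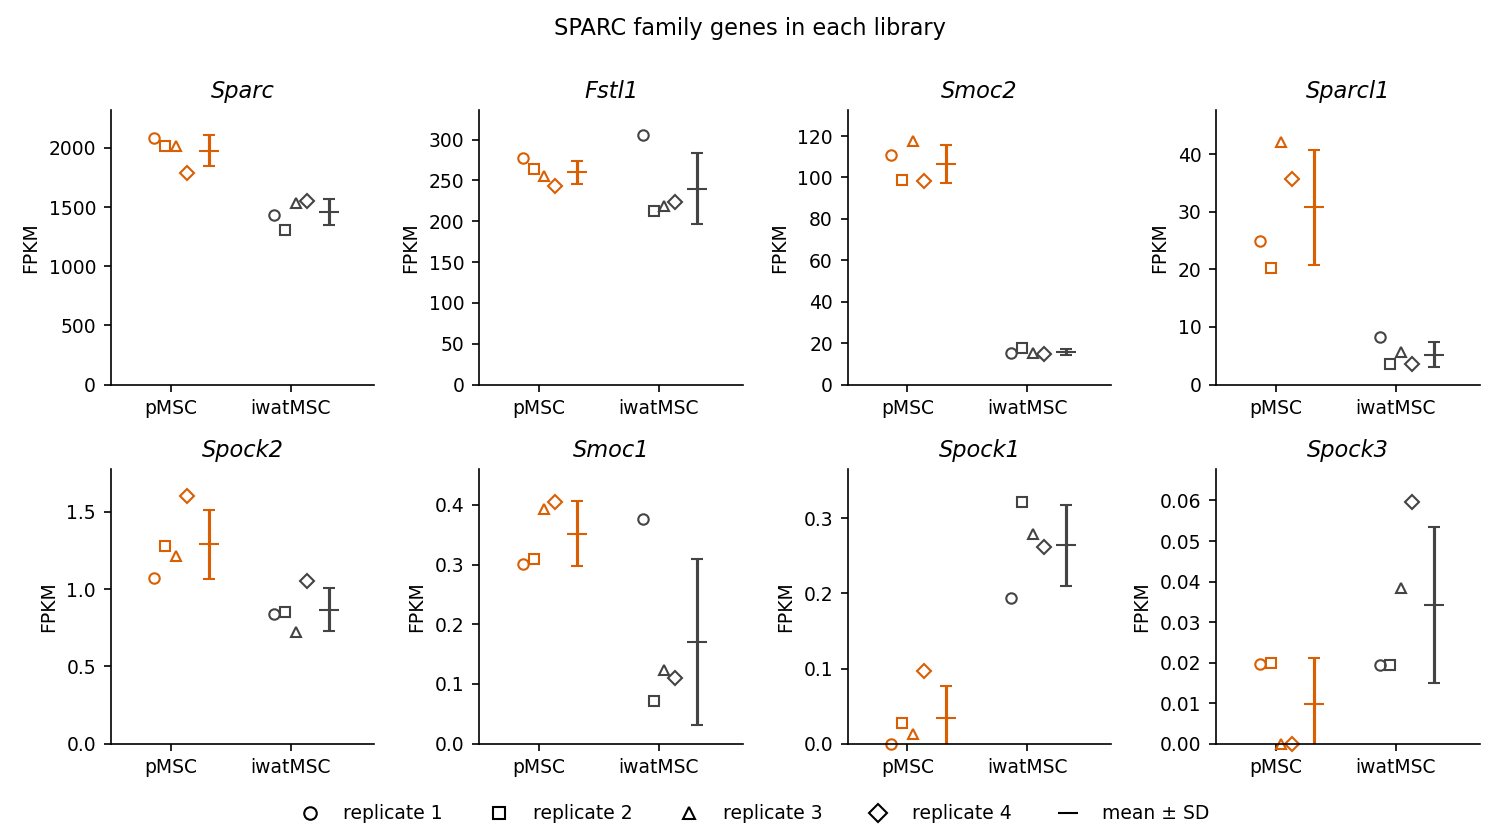
FPKM of the 8 SPARC family genes in the 4 pMSC (orange) and 4 iwatMSC (grey) libraries, 1 panel per gene with its own axis from 0. Symbols are single libraries and bars the mean ± SD, cut at 0. Sparc, Sparcl1, Smoc2 and Spock2 are higher in every pMSC library than in any iwatMSC library, Spock1 lies the other way, and Smoc1, Spock3 and Fstl1 overlap.

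By limma, 3 of the 5 tested members, Sparc, Sparcl1 and Smoc2, differed between the organs, each with the higher level in pMSCs, beside 9.02% of all tested genes in that direction. Groups did not overlap for 4 tested members, as for 24.4% of all tested genes. The median log2 fold change of the 5 tested members was 0.44, against -0.033 over all tested genes, with the reservation that Spock2 entered through the group in which it was higher.

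**Figure D2:**
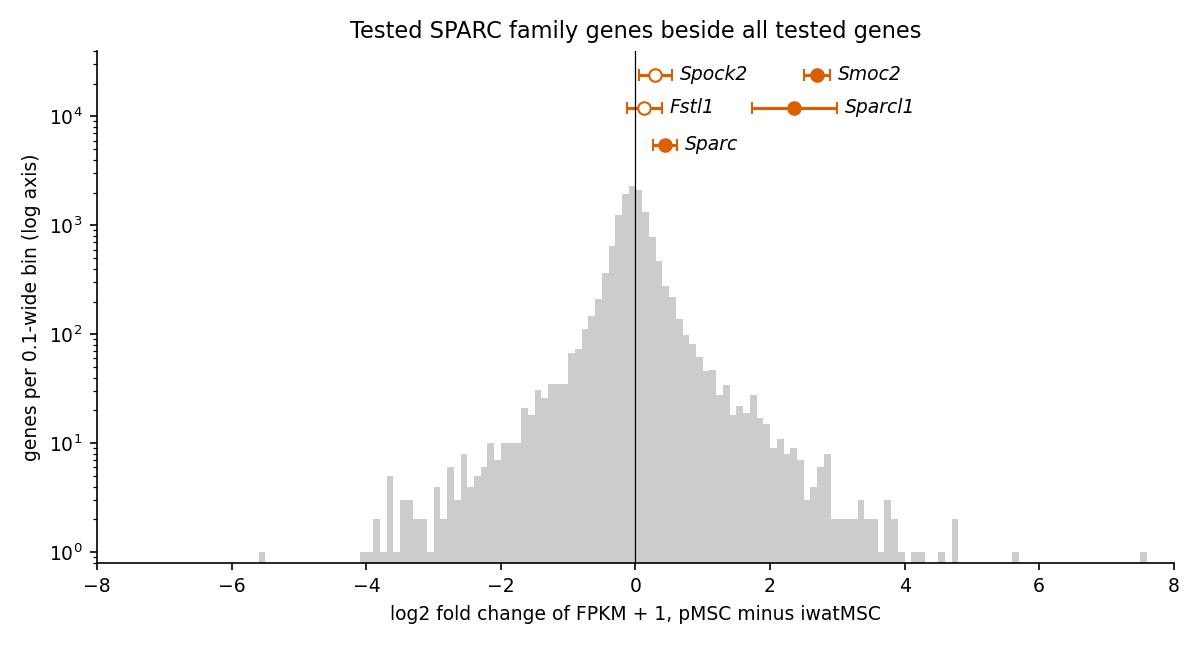
Log2 fold changes of FPKM + 1, pMSC minus iwatMSC, of the 5 tested family genes (orange points with 95% confidence intervals, filled where called, at arbitrary heights) over the number of all 13345 tested genes per bin (grey, log axis). Smoc2 at 2.69 and Sparcl1 at 2.36 lie far to the right of the bulk of genes, Sparc at 0.44 lies at its right shoulder, and Spock2 and Fstl1 are open points nearer 0.

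Sparc (ENSMUSG00000018593, chromosome 11, 55394500 to 55423183 of GRCm38, minus strand), which encodes the collagen-binding founder of the family, was the most abundant member. Its level was 2087, 2018, 2013 and 1787 FPKM in pMSC replicates 1 to 4 and 1436, 1310.2, 1531 and 1550.1 FPKM in iwatMSC replicates 1 to 4. All pMSC libraries were above all iwatMSC libraries, and replicate 4 was the lowest of the pMSCs. The means of 1976 ± 131 and 1457 ± 109.9 FPKM are a 1.36-fold difference, with a log2 fold change of 0.44 ± 0.0804 (SE), a 95% confidence interval of 0.26 to 0.62 and a limma adjusted p of 0.00492. Of 13345 tested genes, 1117 had a larger log2 fold change in this direction. The acinar marker sum was 337 and 184 FPKM in pMSC replicates 1 and 2 and 62.4 and 83.2 FPKM in replicates 3 and 4. Without replicates 1 and 2 the Sparc difference was 0.38 with a limma adjusted p of 0.0637. With only pMSC replicates 3 and 4 left, calls over all genes also fell, from 2589 to 1468. The part of acinar RNA in the Sparc value was not tested.

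Sparc had 9 annotated transcripts, all in the table, and most of its level came from protein-coding Sparc-201. This transcript was at 1510.2 to 1934 FPKM in pMSCs and 1203 to 1404 FPKM in iwatMSCs, with no overlap, and it differed by 0.44 ± 0.0883 on the log2 scale (adjusted p = 0.0284 over 24686 transcripts). That call was lost in 9 of 18 alternative analyses, with adjusted p from 0.0105 to 0.210, among them leaving out pMSC replicate 1, 2 or 3 or iwatMSC replicate 2 or 4. Sparc-202, which starts downstream of it, was at 74.3, 171, 118 and 216 FPKM in pMSCs and 38.2, 58.4, 90.8 and 233 FPKM in iwatMSCs. Its groups overlapped, with the highest value in iwatMSC replicate 4, and its difference did not pass the test (adjusted p = 0.591). Sparc-207, which starts upstream, was at 51.7 ± 18.3 and 46.2 ± 18.4 FPKM (adjusted p = 0.833).

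The share of Sparc-201 in the gene was 89.4 ± 3.79% in pMSCs and 89.4 ± 6.38% in iwatMSCs, and the test of its ratio to the other transcripts gave an adjusted p of 0.971. The lowest shares were in replicate 4 of each organ, at 84.5% and 79.9%. The other Sparc transcripts were minor. Sparc-205, annotated as a retained intron, was at 19.2 FPKM in pMSC replicate 4 and at 2.88 to 3.51 FPKM in the other 7 libraries, and retained-intron transcript Sparc-204 had means of 0.991 and 0.285 FPKM with no overlap but lay under the filter. Sparc-203 and Sparc-208 had group means of 0.986 to 1.99 FPKM and did not pass the test, Sparc-206 was above 0 only in iwatMSC replicate 2, and Sparc-209 was listed at 0 in all libraries.

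Sparcl1 (ENSMUSG00000029309, chromosome 5, 104079111 to 104113733, minus strand) encodes hevin, an anti-adhesive relative of SPARC best known from brain astrocytes and from blood vessels. Its level was 25.0, 20.3, 42.1 and 35.6 FPKM in pMSCs and 8.24, 3.49, 5.59 and 3.56 FPKM in iwatMSCs. The groups did not overlap, but the libraries of each varied by more than for Sparc, with coefficients of variation of 32.3% and 42.8% against 6.62% and 7.54%. Means were 30.8 ± 9.92 and 5.22 ± 2.24 FPKM, a 5.89-fold difference, and the log2 fold change was 2.36 ± 0.28 (SE, interval 1.73 to 3.0, adjusted p = 0.000456), exceeded in this direction by 58 tested genes. By the unequal-variance test on unlogged FPKM the adjusted p was 0.0861.

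The level of Sparcl1 came from Sparcl1-201 (30.2 ± 9.62 and 5.20 ± 2.23 FPKM, log2 fold change 2.34, adjusted p = 0.00395), while the shorter Sparcl1-202 stayed below 1 FPKM in every library. Since the gene is known from vessels, marker lists of pericytes and smooth muscle and of endothelium are given beside it. The sum of 11 pericyte and smooth muscle markers was 1198, 1264, 684 and 585 FPKM in pMSCs and 175, 142, 385 and 348 FPKM in iwatMSCs. It was thus higher in pMSCs, as Sparcl1 was, but within pMSCs it was highest in replicates 1 and 2, where Sparcl1 was lowest. Most of the sum was Acta2 (means of 574 and 175 FPKM), which the paper uses as a fibrogenesis marker, and Tagln (327 and 78.9 FPKM). The pattern of the sum is thus mainly theirs. Of the other markers, Cspg4 and Des were called higher in pMSCs. Rgs5, Notch3, Kcnj8, Abcc9 and Cnn1 overlapped between groups, and Myh11 and Mcam were higher in pMSCs but under the filter. The sum of 10 endothelial markers was lower in pMSCs (2.81 to 4.20 against 7.55 to 9.67 FPKM), and Emcn, Tie1 and Erg were listed at 0 in all libraries. Most of that sum was Tek (means of 2.35 and 6.14 FPKM), the only endothelial marker tested, which was called lower in pMSCs. Cdh5, Kdr and Vwf were lower in pMSCs but under the filter. Pecam1 and Esam had higher means in pMSCs but overlapped between groups, as did Cldn5. The part of such cells in the Sparcl1 result was not tested.

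Smoc2 and Smoc1 encode SPARC-related modular calcium-binding proteins of basement membranes, and Smoc2 showed the largest log2 fold change of the 5 tested members. Smoc2 (ENSMUSG00000023886, chromosome 17, 14279506 to 14404790, plus strand) was at 111, 98.9, 117 and 98.5 FPKM in pMSCs and 15.0, 17.7, 15.0 and 14.7 FPKM in iwatMSCs. The groups were far apart, and the spread within each was small, with coefficients of variation of 8.75% and 8.94%. Means of 106 ± 9.32 and 15.6 ± 1.40 FPKM gave a 6.82-fold difference, with a log2 fold change of 2.69 ± 0.0853 (SE, interval 2.50 to 2.89) and an adjusted p of 1.02e-07. Only 43 of 13345 genes had a larger log2 fold change in this direction, and the difference was called in all 18 alternatives (2.43 to 2.77). The ratio of Sparc to Smoc2 was 17.1 to 20.4 in pMSCs and 74.1 to 105 in iwatMSCs.

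The value of Smoc2 rests on 1 of its 7 annotated transcripts, Smoc2-201, the only one in the table. The other 6 carry identifiers above the highest in the table and were not analysed here. Among them, full-length Smoc2-204 differs from Smoc2-201 by 33 extra bases at the start of exon 6, so most fragments of either could be assigned to the other. Smoc1 has the same pair of forms, Smoc1-202 with 33 extra bases and Smoc1-201 without them, and the 2 inserts are alike in 23 of 33 positions (69.7%), share their first and last 7 bases and are shown for that reason. The sequences are exon 6 of GENCODE M21 on GRCm38, plus strand (chr12:81150619-81150708 and chr17:14347174-14347257), with the extra bases in capitals.
Smoc1-202: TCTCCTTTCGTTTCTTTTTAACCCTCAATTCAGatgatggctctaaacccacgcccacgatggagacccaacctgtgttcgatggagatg
Smoc2-204: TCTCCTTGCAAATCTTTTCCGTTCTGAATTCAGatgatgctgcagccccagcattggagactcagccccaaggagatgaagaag

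Smoc1 (ENSMUSG00000021136, chromosome 12, 81026808 to 81186414, plus strand) was close to the limit of the table in both cell types. It was at 0.301, 0.308, 0.394 and 0.404 FPKM in pMSCs and 0.376, 0.0712, 0.123 and 0.109 FPKM in iwatMSCs. The groups overlapped through iwatMSC replicate 1, and the other 3 iwatMSC libraries were below all pMSCs. In a fit without the filter its difference was 0.21 (adjusted p = 0.155 over 29105 genes). Its level moved between forms from library to library, since Smoc1-201 held from 0 to 96.6% of the gene in pMSCs and from 0 to 17.9% in iwatMSCs, and at under 0.41 FPKM such shares cannot be read. Per length, Smoc2 was above Smoc1 in every library.

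The testicans were low. Spock2 (ENSMUSG00000058297, chromosome 10, 60106219 to 60135198, plus strand), which encodes testican-2, was at 1.07, 1.28, 1.21 and 1.60 FPKM in pMSCs and 0.842, 0.850, 0.726 and 1.06 FPKM in iwatMSCs. Every pMSC library was above every iwatMSC library, though the lowest pMSC and the highest iwatMSC value were nearly equal. Means were 1.29 ± 0.224 and 0.868 ± 0.137 FPKM, and the difference of 0.29 ± 0.11 on the log2 scale (interval 0.048 to 0.54) did not pass the test across genes (adjusted p = 0.0940) or under any of 17 alternatives (0.0745 to 0.212). Spock2-201 held nearly all of it except in iwatMSC replicate 4, where the retained-intron form Spock2-202 was at 0.525 FPKM beside 0.530 FPKM of Spock2-201. Spock2-203 was listed at 0 throughout.

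Spock1 (ENSMUSG00000056222, chromosome 13, 57421195 to 57908332, minus strand), which encodes testican-1, was the only member with its higher values in iwatMSCs and no overlap. It was at 0, 0.0275, 0.0135 and 0.0961 FPKM in pMSCs and 0.193, 0.322, 0.279 and 0.262 FPKM in iwatMSCs, all from Spock1-202, while its other 5 transcripts were listed at 0. Groups did not overlap in 8.33% of the 15760 genes below the filter that were above 0 somewhere. The fit without a filter gave -0.29 ± 0.041 (adjusted p = 0.00431 over 29105 genes), a value that depends on the pseudocount at such levels. Spock3 (ENSMUSG00000054162, chromosome 8, 62951009 to 63357103, plus strand), which encodes testican-3, was the lowest member, at 0.0196, 0.0198, 0 and 0 FPKM in pMSCs and 0.0195, 0.0193, 0.0384 and 0.0596 FPKM in iwatMSCs. Its groups overlapped, only Spock3-204 of 6 transcripts was above 0, and the fit without a filter gave an adjusted p of 0.314.

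Fstl1 (ENSMUSG00000022816, chromosome 16, 37776873 to 37836514, plus strand) encodes follistatin-like 1, a secreted glycoprotein of stromal cells and preadipocytes that binds BMP4. It was the second member by level, at 277, 264, 255 and 243 FPKM in pMSCs and 306, 212, 219 and 223 FPKM in iwatMSCs. The groups overlapped only because of iwatMSC replicate 1, which had the highest value of all, while the other 3 iwatMSC libraries were below every pMSC library. Means of 260 ± 14.4 and 240.0 ± 43.9 FPKM differed by 0.13 ± 0.11 on the log2 scale (interval -0.13 to 0.39, adjusted p = 0.481), and without iwatMSC replicate 1 the difference was 0.25 with an adjusted p of 0.0290. That library also had the highest stromal marker sum, at 2037 FPKM against 1388 to 1564 FPKM in the other iwatMSCs. Its sum over SPARC-bound collagens and their assembly genes was 2159 FPKM against 1409 to 1556 FPKM. Both lists hold Col1a1, Col1a2, Dcn and Lum, so the high sums are not separate observations. Their part in the Fstl1 value was not tested.

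The transcripts of Fstl1 did not all follow the gene. Protein-coding Fstl1-201 held most of it, at 253 ± 14.6 FPKM in pMSCs against 225 ± 44.6 FPKM in iwatMSCs (adjusted p = 0.489, and 0.0255 without iwatMSC replicate 1). The short non-coding form Fstl1-206 was at 2.94, 2.77, 2.47 and 4.15 FPKM in pMSCs and 9.85, 8.34, 11.6 and 11.8 FPKM in iwatMSCs. All iwatMSC libraries were above all pMSC libraries, opposite to the other called transcripts of the family. The means of 3.08 ± 0.739 and 10.4 ± 1.60 FPKM gave 3.37-fold more in iwatMSCs, a log2 fold change of -1.48 ± 0.16 (SE) and an adjusted p of 0.00165, called in all 18 alternatives (0.00112 to 0.0486). With it, 4 of the 11 tested transcripts of the family were called, beside 5.54% of all tested transcripts, where 2.79% were higher and 2.75% lower in pMSCs.

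Fstl1-206 and a similar form, Fstl1-203, share exon 2 of Fstl1-201, which opens with an ATG, and the end of its exon 1, and then end in exons of their own inside the long intron of Fstl1-201. The junctions are printed because each of these forms continues in a different exon after exon 2. Shown are the last 30 bases of exon 2 (chr16:37777294-37777350) in lower case and the first 60 bases of the next exon in capitals, from GENCODE M21 on GRCm38, plus strand. The next exon is chr16:37815706-37815810 in Fstl1-201, chr16:37798850-37799471 in Fstl1-206 and chr16:37793888-37794238 in Fstl1-203.
Fstl1-201: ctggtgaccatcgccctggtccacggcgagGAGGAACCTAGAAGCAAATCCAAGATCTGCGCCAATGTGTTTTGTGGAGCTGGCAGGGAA
Fstl1-206: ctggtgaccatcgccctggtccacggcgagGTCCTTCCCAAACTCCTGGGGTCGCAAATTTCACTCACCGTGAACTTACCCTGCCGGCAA
Fstl1-203: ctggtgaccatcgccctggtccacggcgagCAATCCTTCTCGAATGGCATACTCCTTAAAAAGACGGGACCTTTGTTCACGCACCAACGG

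Fstl1-203 was at 1.04 to 1.99 FPKM in pMSCs and 2.05 to 3.24 FPKM in iwatMSCs. Its groups did not overlap either, with the higher values again in iwatMSCs, as groups did not in 14.3% of all tested transcripts, and its difference of -0.52 did not pass the test (adjusted p = 0.144). As a share of the gene, Fstl1-206 held 1.20 ± 0.343% in pMSCs and 4.42 ± 1.02% in iwatMSCs, and Fstl1-201 held 97.5 ± 0.230% and 93.6 ± 1.53%. Neither share overlapped between groups. The log2 ratio of Fstl1-206 to the other transcripts differed by -1.66 ± 0.23 (adjusted p = 0.0545 over 17450 transcripts, of which 0.195% were called) and that of Fstl1-201 by 1.28 ± 0.20 (adjusted p = 0.0686), both short of the threshold. With 1 library left out the adjusted p for Fstl1-206 ranged from 0.0315 (without iwatMSC replicate 1) to 0.160 and passed also without pMSC replicate 4 (0.0491), and for Fstl1-201 it passed without iwatMSC replicate 1 (0.0170). Fstl1-202, Fstl1-204 and Fstl1-205 had group means under 1 FPKM and overlapped.

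**Figure D3:**
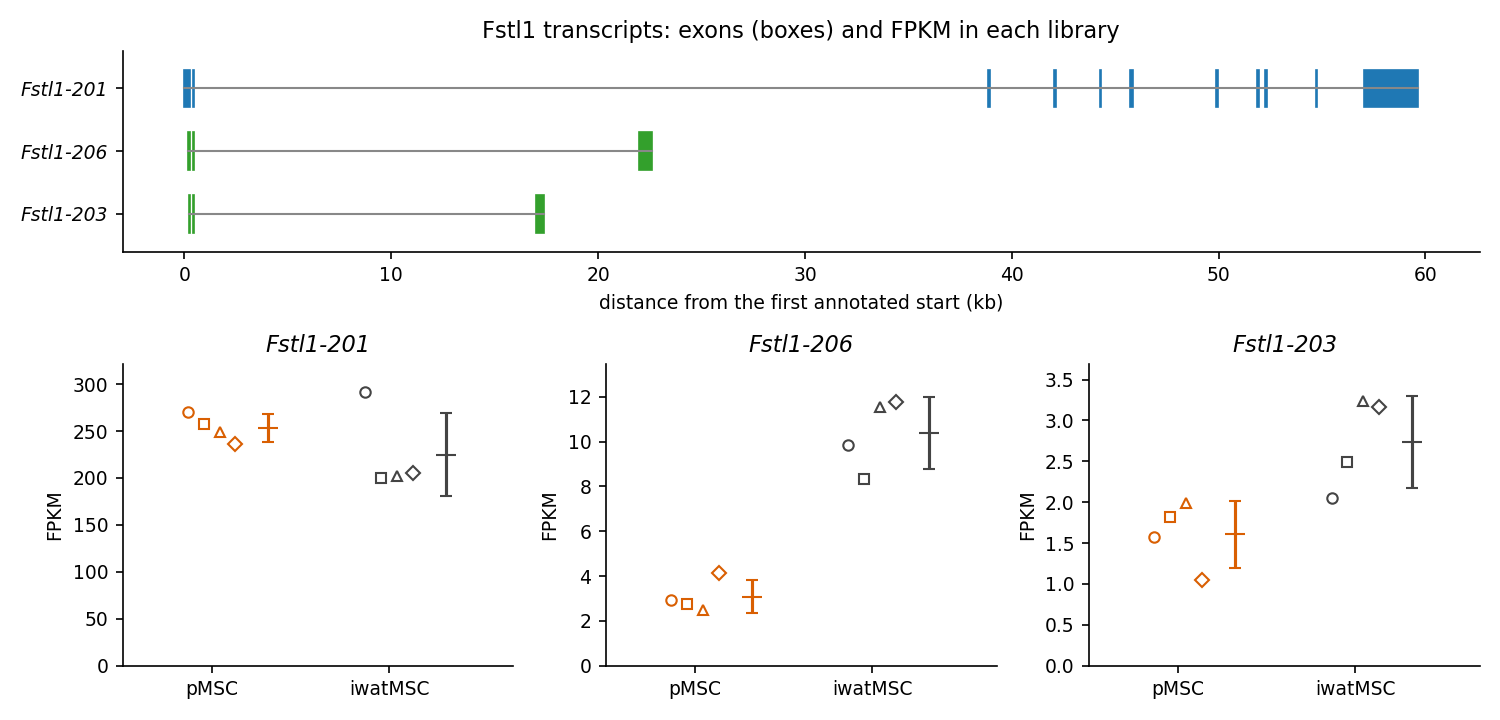
Top, exons (boxes) of the tested Fstl1 transcripts, drawn to scale against the distance from the first annotated start in kb. Bottom, FPKM of each in the 4 pMSC (orange) and 4 iwatMSC (grey) libraries, with symbols for replicates 1 to 4 (circle, square, triangle, diamond) and bars for mean ± SD. Fstl1-206, which ends within the long intron of Fstl1-201, is at 2.47 to 4.15 FPKM in pMSCs and 8.34 to 11.8 FPKM in iwatMSCs, while Fstl1-201 overlaps between groups.

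No annotated gene in the overlap of a member's locus shared exon bases with it, so the unstated strand setting leaves no exonic overlap to resolve for the 8 genes. The split of fragments between the forms of a gene is an estimate.

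Genes that the family is known to meet, in 5 lists, and relatives by class or domain, in 2 lists, were counted together, and 34 of 73 tested genes were called, beside 19.4% of all tested genes. Collagens that SPARC binds and genes of fibril assembly gave 5 higher and 2 lower in pMSCs of 12 tested (58.3% called, median log2 fold change 0.28). Fmod, which encodes the collagen-binding proteoglycan fibromodulin, was at 5.82 ± 2.48 FPKM in pMSCs against 0.200 ± 0.112 FPKM in iwatMSCs (log2 fold change 2.44, adjusted p = 0.000140). Fmod reached the filter only through its pMSC libraries. Dcn, which encodes decorin, a regulator of fibril width, was at 289 ± 16.5 and 483 ± 146 FPKM (-0.69, adjusted p = 0.0303). The count of 7 calls fell to between 2 and 4 with any single library left out except iwatMSC replicate 1, without which it was 8, and it was 1 by the unequal-variance test. The Dcn call was lost in 8 of 18 alternatives, among them leaving out any 1 pMSC library or iwatMSC replicate 2.

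Growth factors and receptors that SPARC is known to act on gave 2 higher and 1 lower of 8 tested (37.5% called, median 0.061). Pdgfra, a receptor of platelet-derived growth factor and a stromal marker, was at 152 ± 11.2 FPKM in pMSCs against 67.0 ± 11.2 FPKM in iwatMSCs (log2 fold change 1.18, adjusted p = 0.000116). Its ligand gene Pdgfc was at 3.03 ± 0.764 and 7.03 ± 1.05 FPKM (-1.01, adjusted p = 0.00214). Stab1, which encodes a scavenger receptor that clears SPARC, lay under the filter at 0.434 and 0.638 FPKM.

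Among BMP pathway genes, 6 were higher and 2 lower in pMSCs of 21 tested (38.1% called, median 0.15). The ligand gene Gdf6 was at 7.74 to 13.9 FPKM in pMSCs, with a mean of 9.97, and at 0.298 to 0.807 FPKM in iwatMSCs (log2 fold change 2.81, adjusted p = 1.23e-05). Gdf6 and Nog, both among the higher calls, reached the filter only through their pMSC libraries. Bmp4, the ligand that FSTL1 binds, was at 4.33, 4.17, 3.95 and 4.25 FPKM in pMSCs and 1.16, 1.25, 0.788 and 0.863 FPKM in iwatMSCs, with a log2 fold change of 1.37 and an adjusted p of 2.26e-05. It counts also among the 7 partners of FSTL1, of which 1 was higher and 2 lower (42.9% called, median -0.035). In that list Dip2c, which encodes a relative of the FSTL1 receptor DIP2A, was at 6.83 ± 0.245 and 9.19 ± 0.540 FPKM (-0.38, adjusted p = 0.00522).

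Proteases on which testicans act, with their inhibitors, gave 1 higher and 1 lower of 7 tested (28.6% called, median -0.082). Mmp2, which encodes a gelatinase, was at 150 ± 39.2 FPKM in pMSCs against 352 ± 93.7 FPKM in iwatMSCs (log2 fold change -1.23, adjusted p = 0.00392), and the inhibitor gene Timp1 was at 3153 ± 266 and 2039 ± 41.0 FPKM (0.62, adjusted p = 0.000486). Other genes with a follistatin module gave 3 higher and 3 lower of 8 tested (75% called, median -0.26). Among them, Igfbp7 was at 398 ± 39.0 and 162 ± 35.3 FPKM (1.32, adjusted p = 0.000551). The secreted protease gene Htra1 was at 35.3 ± 4.61 and 16.7 ± 6.08 FPKM (1.09, adjusted p = 0.00600). Other matricellular genes gave 3 higher and 3 lower of 12 tested (50% called, median 0.23). Thrombospondin gene Thbs2 was at 106 ± 24.0 FPKM in pMSCs against 1421 ± 147 FPKM in iwatMSCs (-3.75, adjusted p = 4.39e-07), and Ccn5 at 1.51 ± 0.738 and 19.3 ± 15.3 FPKM (-2.80, adjusted p = 0.00162), where iwatMSC replicate 1 was at 42.1 FPKM and replicates 2 to 4 at 8.63 to 13.2 FPKM. By level, Thbs2 and Sparc were thus near each other in iwatMSCs, while Sparc was the higher by far in pMSCs.

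**Figure D4:**
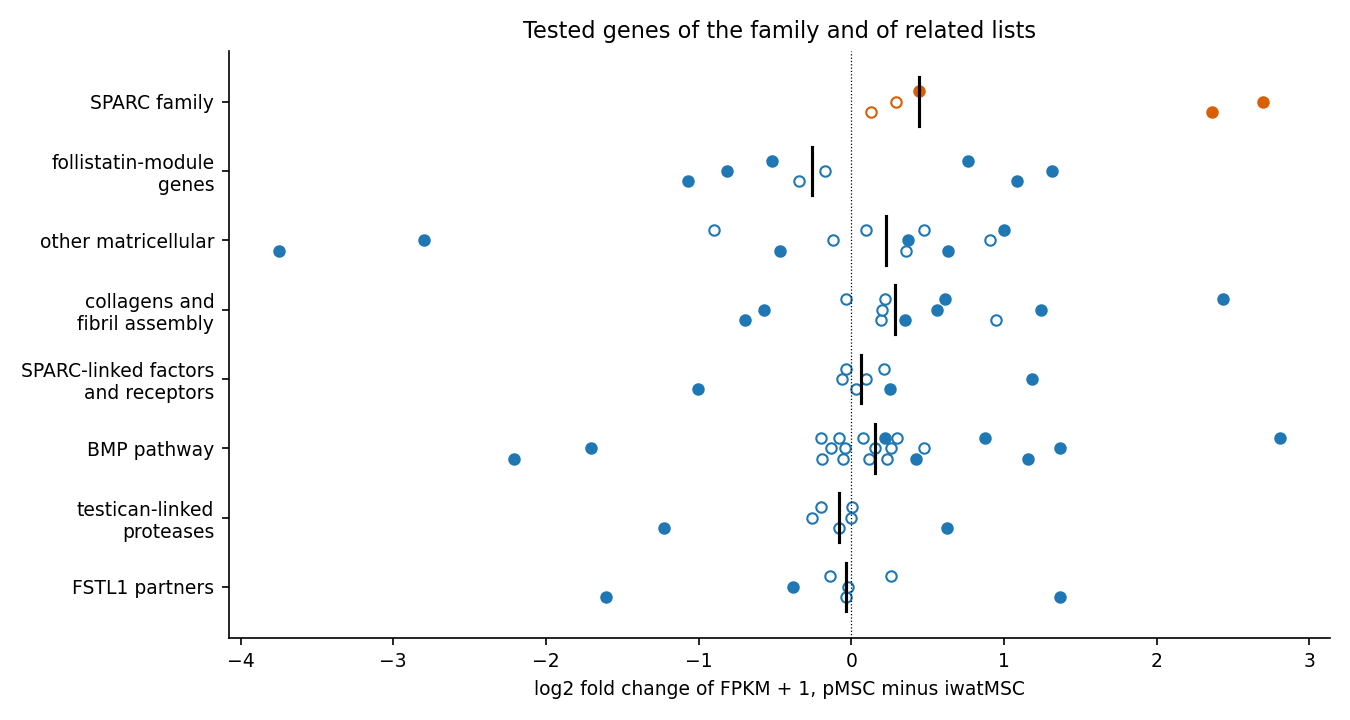
Log2 fold changes of FPKM + 1, pMSC minus iwatMSC, of the tested genes of the SPARC family (orange) and of 7 related lists (blue), filled where called. Black bars are list medians, such as 0.44 for the 5 tested family genes and -0.26 for genes with a follistatin module, and points are staggered only for legibility. Called genes lie on both sides of 0 in each related list.

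Genes with the profile most like that of a tested member over the 8 libraries were found by the root mean square difference of centred log2(FPKM + 1), in log2 units. For Smoc2 these were the homeobox genes Hoxa4 (difference 0.103) and Hoxa2 (0.130), with Hoxa4 at 17.0 to 19.7 FPKM in pMSCs and 1.57 to 1.83 FPKM in iwatMSCs. For Sparcl1 they were Rasl11a (0.257), a small GTPase gene at 36.9 to 83.3 FPKM in pMSCs and 8.20 to 26.0 FPKM in iwatMSCs, and the retinoic acid receptor gene Rarb (0.304). Those of Sparc were Phactr4 (0.0570) and the kinase gene Nuak1 (0.0590). Those of Spock2 were Ildr2 (0.0468) and Pkd1 (0.0526). Those of Fstl1 were Acsl1 (0.0611), which encodes a long-chain acyl-CoA synthetase, and P3h1 (0.0619), which encodes a collagen prolyl hydroxylase. Like Fstl1, both were highest of the iwatMSCs in replicate 1, which follows from how they were chosen. All the likenesses named are over 8 libraries in 2 groups, whose values did not overlap in 24.4% of all tested genes.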

How the data were processed

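RNA of sorted and cultured stromal cells was measured in 4 pMSC and 4 iwatMSC libraries, grouped by the source tissue in the labels. The values deposited by the authors are FPKM for each Ensembl transcript, made from paired BGISEQ reads with FastQC, STAR (GRCm38.p6) and StringTie. The annotation release and the strand setting are not given in the sources used here. FPKM depend on how StringTie divides fragments among transcripts. Counting intervals could not be given because read depth is unknown.

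Of 136535 transcripts, 136372 (99.88%) matched GENCODE M21 by identifier and were summed to 54116 genes, 1138 of them with part of their transcripts, and 0 columns of values had no sample. Sequences were read from GENCODE M21 on GRCm38, and 5 older symbols of CCN genes were matched through RefSeq synonyms.

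Genes and transcripts with a mean of 1 FPKM or more were tested on log2(FPKM + 1) by limma 3.58.1 (R 4.3.3), with a trend and no covariate, two-sided, with Benjamini-Hochberg adjustment over all features tested, and were called at an adjusted p under 0.05. The pseudocount of 1 makes fold changes of low genes smaller. Transcript shares were tested as the log2 ratio of a transcript to the rest of its gene. The tests were checked on simulated data. The alternatives used a pseudocount of 0.1 or 5, no filter or a minimum mean of 5 FPKM, TPM, median-of-ratios or quantile scaling, array weights, the unequal-variance test of the study's methods, each library left out, and both pMSC libraries with the most acinar RNA left out. The study ran that unequal-variance test per transcript at an unadjusted p under 0.05, whereas here its p-values were adjusted like the others.

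All members and their transcripts were named, with, from each related list, the 2 called genes with the largest change and no overlap, and for each tested member the 2 nearest protein-coding profiles. Of the genes that this rule takes, 1 is not reported here. Members and lists were chosen with earlier results of these data known.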

Additional observations from a re-analysis of the deposited data

Results flagged for a closer look

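In 5 of 31 sets of 4 libraries examined, 1 library stood apart from the other 3 by more than the critical value of Dixon's test, which chance alone exceeds in about 1 of 20 sets. Fstl1 was at 306 FPKM in iwatMSC replicate 1 and at 212 to 223 FPKM in the other iwatMSCs. Fstl1-201, which makes up most of that gene, was at 292 FPKM there and at 199.8 to 206 FPKM in the others, so these are 1 observation. Smoc2, and Smoc2-201 with the same values, was at 17.7 FPKM in iwatMSC replicate 2 and at 14.7 to 15.0 FPKM in the others, a gap that is small beside the 98.5 to 117 FPKM of the pMSCs. Sparc-205, a retained-intron form, was at 19.2 FPKM in pMSC replicate 4 and at 2.88 to 3.51 FPKM in the other pMSCs.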

How the results depend on the processing

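Smoc2, Fstl1-206, Smoc2-201 and the absence of a call for Spock2 were the same in every alternative that gave a value. With the unequal-variance test the counts of calls were 1017 genes, 473 transcripts and 12 genes of the related lists, and Sparcl1 missed the threshold (2.35, adjusted p = 0.0861). Without both pMSC libraries with the most acinar RNA the counts were 1468, 534 and 22, Sparc was at 0.38 (adjusted p = 0.0637), and Sparc-207 (-0.26) and Acsl1 (-0.023) turned negative. With each library left out in turn, calls ranged from 1793 to 2840 genes, 864 to 1518 transcripts, 24 to 38 genes of the related lists and 21 to 80 shares. Fstl1 then ranged from 0.075 to 0.25, Acsl1 from -0.018 to 0.16, Sparc-207 from -0.015 to 0.41, and the share ratios of Sparc-201 from -0.50 to 0.16, of Sparc-202 from -0.13 to 0.75 and of Sparc-205 from -0.43 to 0.43. A pseudocount of 5 gave -0.018 for the share ratio of Sparc-205, -1.10 (adjusted p = 0.0406) for that of Fstl1-206 and 114 calls of shares, against 34 as reported and 9 at a mean of 5 FPKM. The cause of these differences was not tested. Spock2 has no value at a mean of 5 FPKM, since it lies below it. No paired analysis was possible because replicate numbers here only follow the order of the libraries, and no source says which pancreas and inguinal libraries share mice. Values under 1 FPKM, those of Smoc1, Spock1 and Spock3, are limited by an unknown depth, and the split of a gene into transcripts by StringTie is an estimate without an error.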
